A study of Rattus norvegicus with 6 samples.

Results

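The genes described are the nuclear-encoded subunits of the mitochondrial respiratory chain and ATP synthase, with the assembly factors that share their names, measured in rat renal cortex. Members were all probes whose accession maps to a rat symbol starting with Nduf (complex I), Sdha to Sdhd (complex II), Uqcr (complex III), Cox4 to Cox8 (complex IV) or Atp5 (complex V). The array held named probes for 83 such genes of 15271 named genes in all, and 82 of the 83 were measured. One of them, Cox6c-ps1, is a transcribed pseudogene that the name rule takes in and that is counted with complex IV. Cox8c, the gene without a value, was not well above background on any of the 6 arrays. Complex I had 39 measured genes, complex II had 4, complex III had 8, complex IV had 16 and complex V had 15. All 82 measured genes were well above background on all 6 arrays.

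RNA came from the renal cortex of male Sprague-Dawley (Crl:CD(SD)) rats bought at 5 weeks of age, with 1 single-colour Agilent array per animal. The vehicle group was 3 rats given corn oil for 4 weeks, and the treated group was 3 rats given o-anthranilic acid, an amino-substituted benzoic acid, at 1000 mg/kg/day for 4 weeks. The series calls the samples of each group biological replicates, and 1 dose and 1 duration were tested. Values are log2 processed signal minus the array's own 75th percentile, so a value of 0 is a signal equal to that percentile. They serve to compare arrays for 1 probe and do not rank genes by abundance.

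The respiratory chain passes electrons from NADH (complex I) and succinate (complex II) through ubiquinone to complex III, and by cytochrome c to complex IV, where oxygen is reduced. Complexes I, III and IV pump protons across the inner membrane, and ATP synthase (complex V) lets them flow back to make ATP. The renal cortex is rich in proximal tubule cells, which rely on this oxidative metabolism to power the reabsorption of solutes.

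The promoters of 5 members are shown first. Uqcrc1, Uqcrc2 and Uqcrq are complex III genes whose treated arrays all lay below the vehicle arrays. Ndufb8 and Cox8b had the smallest p-values in each direction. Each sequence is the 250 bases before the annotated start, 5′ to 3′ on the gene's strand, from the RefSeq promoter table (build GRCr8). Capitals mark exact matches on either strand to the NRF1 motif (GCGCA and GCGC with any 1 base between them; nuclear respiratory factor) or the GABPA motif (CCGGAAG; an ETS factor), both of them regulators known to act on such genes.
Uqcrc1, chr8:118467973-118468222, plus strand: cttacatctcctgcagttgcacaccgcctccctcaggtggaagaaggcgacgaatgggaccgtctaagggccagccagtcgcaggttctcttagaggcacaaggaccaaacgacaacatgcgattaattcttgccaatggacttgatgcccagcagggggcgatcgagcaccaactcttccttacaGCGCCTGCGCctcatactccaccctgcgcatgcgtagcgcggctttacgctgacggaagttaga
Uqcrc2, chr1:184598990-184599239, plus strand: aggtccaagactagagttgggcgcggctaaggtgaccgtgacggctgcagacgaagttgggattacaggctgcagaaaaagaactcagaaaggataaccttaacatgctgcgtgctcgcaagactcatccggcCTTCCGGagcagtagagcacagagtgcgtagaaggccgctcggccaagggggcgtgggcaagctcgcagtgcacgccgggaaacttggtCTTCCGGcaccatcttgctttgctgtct
Uqcrq, chr10:38089979-38090228, minus strand: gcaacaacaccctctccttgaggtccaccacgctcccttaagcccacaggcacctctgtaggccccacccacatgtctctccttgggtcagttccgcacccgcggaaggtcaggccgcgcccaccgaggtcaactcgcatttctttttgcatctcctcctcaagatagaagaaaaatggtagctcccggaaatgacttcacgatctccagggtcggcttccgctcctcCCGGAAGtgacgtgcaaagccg
Ndufb8, chr1:253362937-253363186, minus strand: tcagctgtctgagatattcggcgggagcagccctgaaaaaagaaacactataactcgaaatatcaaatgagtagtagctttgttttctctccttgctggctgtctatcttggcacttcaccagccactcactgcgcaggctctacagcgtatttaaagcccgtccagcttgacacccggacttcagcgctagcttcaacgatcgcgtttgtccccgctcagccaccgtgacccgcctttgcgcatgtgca
Cox8b, chr1:205408274-205408523, minus strand: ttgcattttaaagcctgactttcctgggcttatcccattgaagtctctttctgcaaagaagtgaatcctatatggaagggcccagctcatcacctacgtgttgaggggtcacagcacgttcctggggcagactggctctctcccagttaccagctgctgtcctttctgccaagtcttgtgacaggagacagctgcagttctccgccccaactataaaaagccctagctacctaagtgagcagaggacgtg
In Uqcrc1 an NRF1 match began 64 bases before the start. Uqcrc2 held GABPA matches that began 117 and 28 bases before it, and Uqcrq held one that began 22 bases before it. Ndufb8 and Cox8b held neither motif in these windows. Uqcrb, a further complex III gene with all treated arrays lower, is not shown and was not among the members with a match. Of the 8 complex III members 6 had a promoter in the table, and whether Uqcrb was one of these is not given here.

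Of the 82 measured members, 72 were in the promoter table. The NRF1 motif was found in 12 of these 72 promoters (16.7%) and in 1106 of all 21842 promoters of protein-coding genes in the table (5.06%). The GABPA motif was found in 21 of the 72 (29.2%) and in 1967 of all (9.01%). At least one of them was present in 32 member promoters (44.4%) against 2890 of all (13.2%). The median GC content was 56.2% in the members' windows and 54.0% in all windows. The 32 members with a match had a median log2 fold change (treated minus vehicle) of -0.05, with 25 below 0. The 40 without a match had a median of -0.03, also with 25 below 0. Groups did not overlap for 5 of the 32 and 5 of the 40, beside 14.6% of all features. At an unadjusted limma p under 0.05 were 0 of the 32 and 2 of the 40, beside 8.32% of all features. Treated values therefore lay close to vehicle values in both sets, and the motif shares describe sequence, not binding.

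The respiratory chain transcripts of treated cortex stood close to their vehicle level. Across the 82 members the median log2 fold change was -0.04, 60 members were within 0.1 of 0 and 3 were at 0.2 or more in either direction. With limma and Benjamini-Hochberg adjustment over all 30709 features, 0 of 82 members were called at an adjusted p under 0.05. The background in that comparison was 0% (0 of 30709 features), and the smallest adjusted p of any feature was 0.0786. At an unadjusted limma p under 0.05 there were 2 members, Ndufb8 (lower) and Cox8b (higher), or 2.44% against 8.32% of all features. The count was 1 without vehicle replicate 2, vehicle replicate 3 or treated replicate 2. In the lower direction the background was 4.8% and in the higher direction 3.52%. The precision of the comparison was such that the 95% interval of 80 members lay inside a 1.5-fold change either way, as it did for 72.9% of all features. For 63 members the interval lay inside a 1.25-fold change, which held for 33.6% of all features. Ndufb8 and Cox8b were the members whose interval reached past 1.5-fold.

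**Figure D1:**
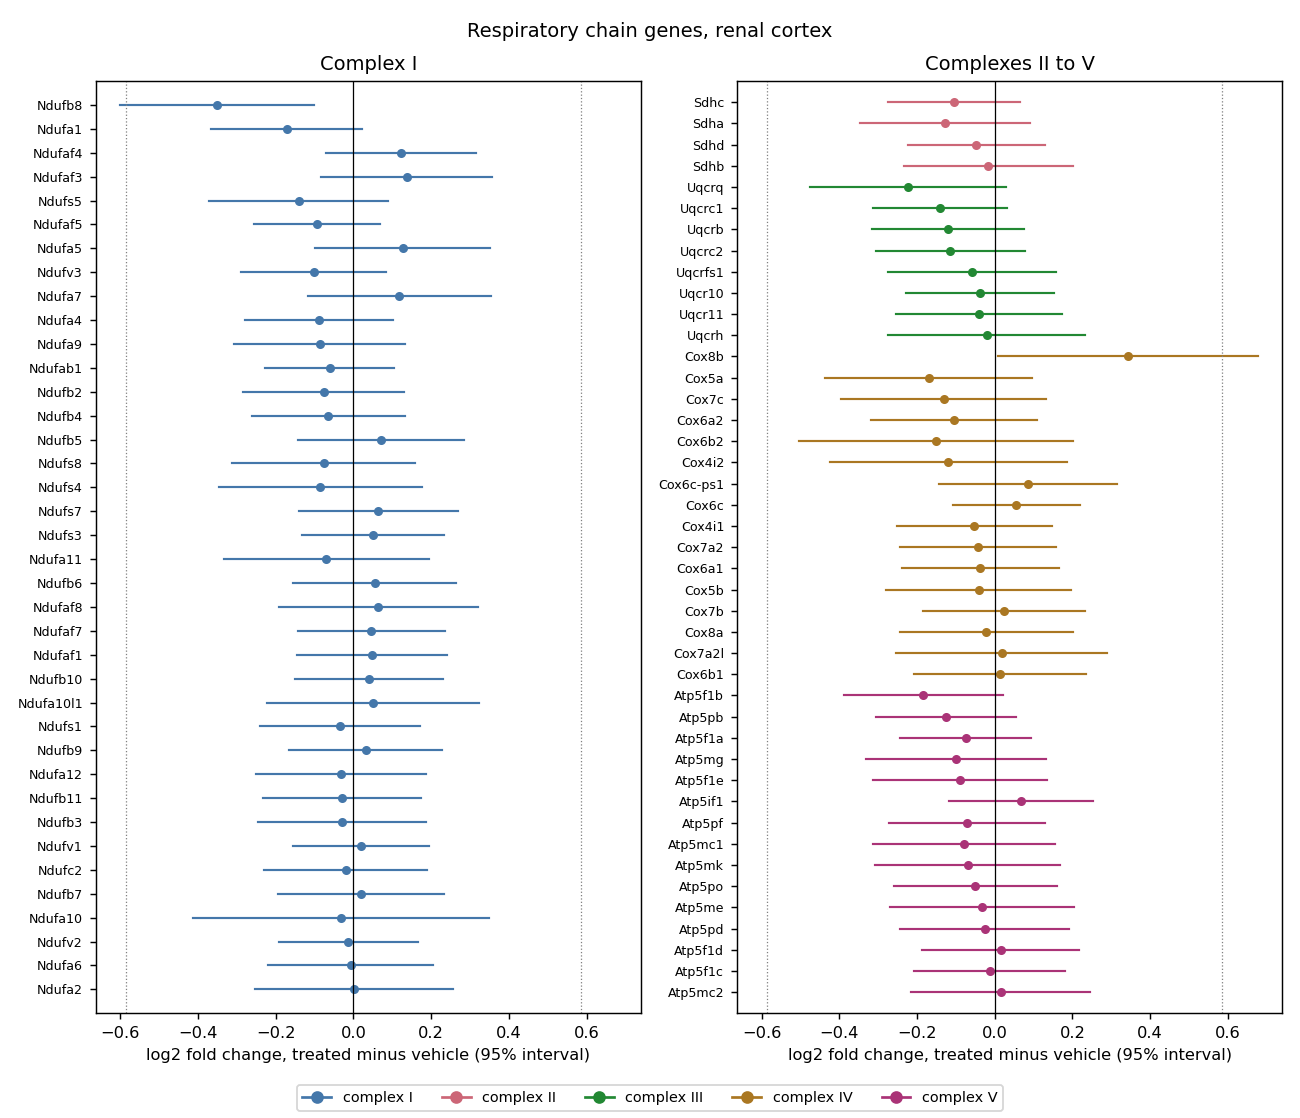
Log2 fold change (treated minus vehicle) of the measured members, on the horizontal axis, with its 95% limma interval as a line; the dotted lines mark a 1.5-fold change either way. Genes are ordered within a complex by their p. Only the intervals of Ndufb8 and Cox8b leave out 0, and only they cross a dotted line.

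The direction was uneven across the complexes and small in each. Of the 82 members 56 had a fold change below 0 and 26 above 0 (68.3% below, against 51.4% of all features). The median log2 fold change was -0.01 for complex I, -0.08 for complex II, -0.09 for complex III, -0.04 for complex IV and -0.07 for complex V, beside -0.01 for all features. All 4 members of complex II and all 8 of complex III lay below 0, as did 12 of 15 in complex V, 10 of 16 in complex IV and 22 of 39 in complex I. Vehicle replicate 3 weighed on this split. Without it 34 of 82 members lay below 0, beside 15384 of all 30709 features, and the members' median was 0.01. Below 0 were then 3 of 4 in complex II, 5 of 8 in complex III and 8 of 15 in complex V. The medians of complexes I, IV and V were then 0.03, 0.03 and -0.01. Without treated replicate 3, 44 of 82 members lay below 0, beside 15544 of all 30709 features, and the median of complex II was -0.04.

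Groups that did not overlap were found for 12 members, or 14.6%, and for 14.6% of all features. In 10 of them every treated value was below every vehicle value (background 8.13%): Ndufb8, Ndufa1, Ndufaf5, Sdhc, Uqcrq, Uqcrc1, Uqcrb, Uqcrc2, Atp5f1b and Atp5pb. In the other two, Cox8b and Cox6c, every treated value was above (background 6.51%). Taken over both directions, the members' share thus equalled that of all features. Of the members that were apart 10 of 12 were lower, beside 2498 of 4498 such features in all. Fewer arrays gave higher counts of members and of all features. Without vehicle replicate 1, 2 or 3 there were 24, 19 and 24 members apart, beside 25.1%, 27.1% and 25.6% of all features.

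In complex I, which oxidises NADH, the 7 core subunits that carry the cofactors and the quinone site lay nearest to the vehicle level. Their median log2 fold change was 0.00 on rounding (3 above 0 and 4 below), and their fold changes ran from -0.08 to 0.06. Ndufv1, which binds NADH and the flavin, had signals of 6.32, 6.33 and 6.38 in vehicle rats and 6.36, 6.43 and 6.30 in treated rats. These groups overlapped, with a difference of 0.02 (SE 0.07). Ndufs1, which holds iron-sulfur clusters, gave 5.01, 5.17 and 5.07 in vehicle and 5.01, 5.15 and 4.99 in treated rats, a difference of -0.03 (SE 0.09). The values overlapped here too, and the signs of both small differences turned under other settings.

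The 26 accessory subunits of complex I had a median log2 fold change of -0.03, with 17 below 0. Ndufb8, a membrane-arm subunit whose protein is often used as a marker of assembled complex I, stood lowest of all 82 members. Its signals were 7.82, 7.88 and 8.05 in vehicle rats (mean 7.92 ± 0.12, SD, n = 3) and 7.71, 7.48 and 7.51 in treated rats (7.57 ± 0.12, SD, n = 3). All treated arrays were below all vehicle arrays, and the difference between the means was larger than the range within either group. The log2 fold change was -0.35 (SE 0.10, 95% interval -0.60 to -0.10), which is 1.28-fold lower (limma adjusted p 0.502 over all features). It rested on a single probe and stayed between -0.42 and -0.28 when each array was left out.

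Ndufa1, a small membrane-arm subunit needed for complex I assembly, gave 6.95, 6.94 and 7.12 in vehicle rats and 6.84, 6.85 and 6.81 in treated rats. The treated arrays lay close together and below the vehicle arrays, of which replicate 3 was the highest. Its log2 fold change was -0.17 (SE 0.08, limma adjusted p 0.633), and a further probe gave -0.16. Without vehicle replicate 3 it was -0.11. Ndufa4, counted here by its symbol although its protein has been found with complex IV, gave 7.22, 7.19 and 7.33 against 7.18, 7.21 and 7.09. These values overlapped, with a difference of -0.09 (SE 0.08), or -0.05 without vehicle replicate 3. Its paralogue Ndufa4l2 had no named probe and was not analysed here.

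The 6 complex I assembly factors, which help build the enzyme and are not part of it, had a median log2 fold change of 0.06, with 5 above 0 and Ndufaf5 below. Ndufaf4 gave 1.70, 1.86 and 1.68 in vehicle rats and 1.84, 1.88 and 1.89 in treated rats. Vehicle replicate 2 lay among the treated values, and the difference was 0.12 (SE 0.08, limma adjusted p 0.711). The other 3 kept probes of Ndufaf4 gave between -0.05 and 0.03. Ndufaf1 gave -0.49, -0.34 and -0.43 against -0.31, -0.39 and -0.44, an overlap with a difference of 0.05 (SE 0.08), or 0.01 without treated replicate 1. Ndufaf5, an enzyme that modifies a core subunit, gave 2.55, 2.51 and 2.59 against 2.47, 2.43 and 2.46. Its treated arrays were all lower, by a small margin, with a log2 fold change of -0.09 (SE 0.07).

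Complex II, succinate dehydrogenase, feeds electrons from the citrate cycle into the chain. Sdha, the flavoprotein that oxidises succinate, gave 7.16, 7.13 and 7.01 in vehicle rats and 6.94, 6.89 and 7.10 in treated rats. Treated replicate 3 lay inside the vehicle range, and the difference was -0.13 (SE 0.09, limma adjusted p 0.731). A further probe of Sdha gave -0.12. Without treated replicate 2 the difference was -0.09. Sdhb, the iron-sulfur subunit, gave 5.55, 5.56 and 5.77 against 5.64, 5.64 and 5.55, with overlap and a difference of -0.02 (SE 0.09) that turned above 0 in some settings.

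The membrane anchors Sdhc and Sdhd bind ubiquinone and haem. Sdhc gave 5.73, 5.74 and 5.78 in vehicle rats and 5.68, 5.69 and 5.58 in treated rats. The groups did not overlap, although treated replicates 1 and 2 lay within 0.1 of the lowest vehicle value, and the log2 fold change was -0.10 (SE 0.07, limma adjusted p 0.722). Sdhd gave 6.38, 6.36 and 6.43 against 6.38, 6.37 and 6.27, which overlapped, with a difference of -0.05 (SE 0.07), or -0.01 without treated replicate 3.

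Complex III, the cytochrome bc1 complex, had a median log2 fold change of -0.09 and 4 of 8 members with every treated array below every vehicle array (the background in that direction was 8.13%). None of the 8 reached an unadjusted limma p under 0.05. Both core proteins were among the 4. Uqcrc1, a scaffold on the matrix side, gave 5.19, 5.19 and 5.30 in vehicle rats (mean 5.23 ± 0.06, SD, n = 3) and 5.07, 5.11 and 5.07 in treated rats (5.09 ± 0.02, SD, n = 3). The difference was wider than the scatter within the treated group, with a log2 fold change of -0.14 (SE 0.07, 95% interval -0.31 to 0.03, limma adjusted p 0.654). Its second probe gave -0.07. Uqcrc2, the partner core protein, gave 5.38, 5.56 and 5.41 against 5.33, 5.37 and 5.31. The groups were apart by a narrow margin, with a log2 fold change of -0.11 (SE 0.08), or -0.06 without vehicle replicate 2.

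The small subunits Uqcrq and Uqcrb sit by the catalytic subunits. Uqcrq gave 0.08, -0.13 and -0.13 in vehicle rats and -0.37, -0.34 and -0.13 in treated rats. Treated replicate 3 all but touched the vehicle values, and the log2 fold change was -0.22 (SE 0.10, 95% interval -0.48 to 0.03, limma adjusted p 0.633). The kept probe of Uqcrq read far below those of the other complex III members, whose vehicle means ran from 5.23 to 8.31. A further probe of Uqcrq was above background on 1 array and was not used. Uqcrb gave 7.17, 7.13 and 7.31 against 7.12, 7.10 and 7.04, with a log2 fold change of -0.12 (SE 0.08), and its other probes gave between -0.10 and -0.04. Uqcrfs1, the Rieske iron-sulfur protein that carries the electrons, gave 5.88, 6.04 and 6.02 against 6.02, 5.92 and 5.82. These overlapped, with a difference of -0.06 (SE 0.09). Without vehicle replicate 3 Uqcrb was at -0.07, and the median of complex III was -0.05, beside -0.06 for complex II. Uqcrfs1 was at -0.01 without treated replicate 3.

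**Figure D2:**
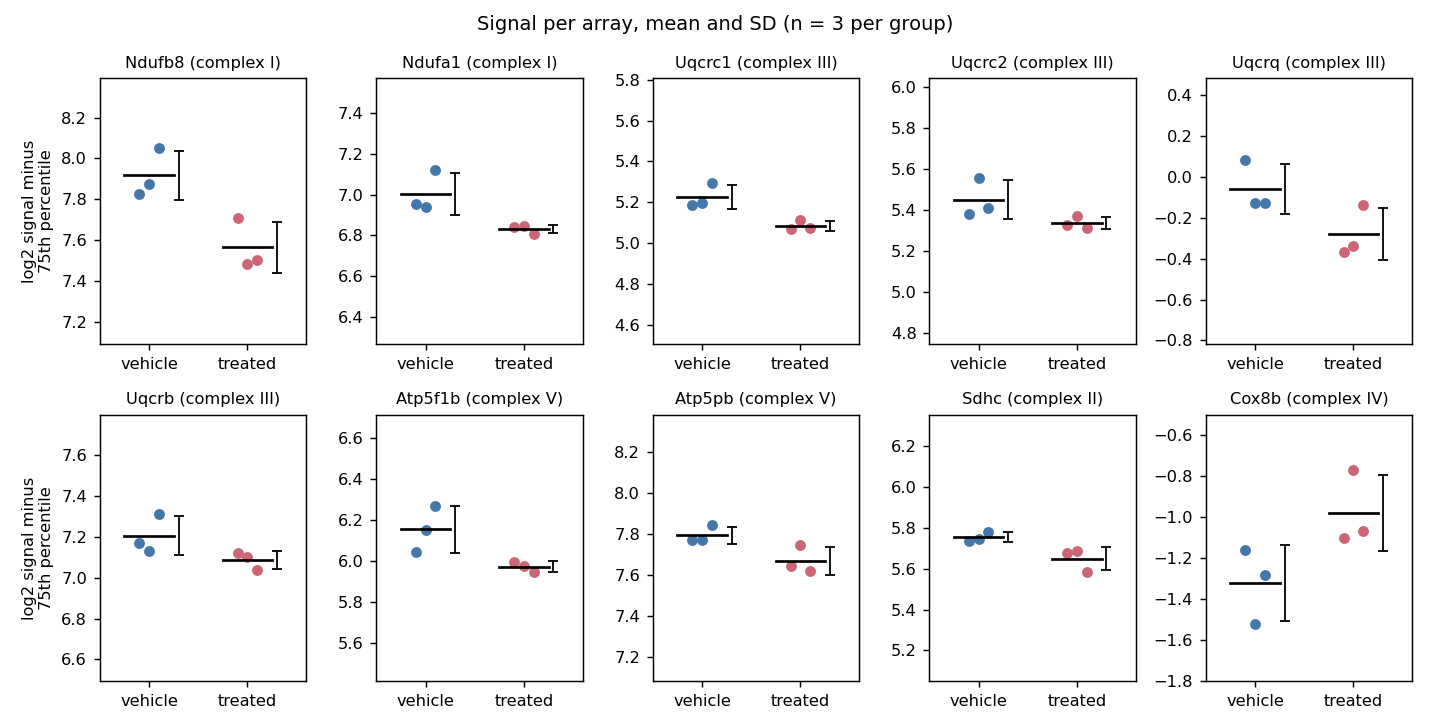
Signal per array (log2 processed signal minus the array's 75th percentile, vertical axes spanning the same log2 range) of 10 members in vehicle and treated rats; points are arrays, horizontal lines are group means and bars are SD (n = 3). The 10 genes are 9 of the 10 members with every treated array lower, and Cox8b, with every treated array higher.

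Complex IV, cytochrome c oxidase, has common nuclear subunits and isoforms that replace them in particular tissues. The 10 common forms had a median log2 fold change of -0.04, with 3 above 0 and 7 below. Cox4i1, the common form of a regulatory subunit, gave 7.56, 7.65 and 7.78 in vehicle rats and 7.63, 7.61 and 7.58 in treated rats. The treated values lay inside the vehicle range, with a difference of -0.05 (SE 0.08). Its isoform Cox4i2, known from lung and low oxygen, gave 2.90, 3.03 and 3.30 against 3.06, 2.96 and 2.85, a difference of -0.12 (SE 0.13) with overlap, while a second probe gave 0.03.

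Cox5a, another common subunit, gave 7.13, 6.99 and 7.27 in vehicle rats and 6.92, 7.10 and 6.86 in treated rats. Treated replicate 2 was above vehicle replicate 2, and the difference was -0.17 (SE 0.11, limma adjusted p 0.709). Cox7c gave 3.88, 4.09 and 4.23 against 4.01, 3.92 and 3.88, with overlap and a difference of -0.13 (SE 0.11). Without vehicle replicate 3, the highest array for each of them, Cox4i2, Cox5a and Cox7c were at -0.01, -0.10 and -0.05. Cox6a1, Cox7a2 and Cox8a, the common forms of the subunits that have muscle isoforms, had differences of -0.04, -0.04 and -0.02 (SE 0.08, 0.08 and 0.09). For these 3 genes and for Cox4i1 the sign turned without vehicle replicate 3, which was their highest array, and for Cox6a1 and Cox8a also under quantile normalisation. Cox6c, the common member with all treated arrays higher, gave 7.58, 7.62 and 7.62 against 7.70, 7.66 and 7.62. Treated replicate 3 lay just above vehicle replicates 2 and 3. The log2 fold change of Cox6c was 0.06 (SE 0.07), and its second probe gave -0.09. Cox7a2l, which joins complexes III and IV in supercomplexes, gave 4.91, 4.92 and 5.24 against 5.02, 5.10 and 5.0, an overlap with a difference of 0.02 (SE 0.11).

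Cox8b, the isoform known from striated muscle and brown fat, stood highest of the 82 members in fold change. Its signals were -1.16, -1.52 and -1.28 in vehicle rats (mean -1.32 ± 0.19, SD, n = 3) and -1.10, -0.77 and -1.07 in treated rats (-0.98 ± 0.18, SD, n = 3). Every treated array was above every vehicle array, treated replicate 1 by less than 0.1 over vehicle replicate 1. The log2 fold change was 0.34 (SE 0.14, 95% interval 0.01 to 0.68), or 1.27-fold, with a limma adjusted p of 0.593, and a second probe gave 0.27. Left out 1 at a time, the arrays gave between 0.24 and 0.42. Cox6a2, the muscle isoform of Cox6a1, gave -1.15, -1.22 and -1.30 against -1.22, -1.43 and -1.33, a difference of -0.11 (SE 0.09) with overlap, or -0.06 without treated replicate 2. Cox7a1, the muscle isoform of Cox7a2, had no named probe.

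Markers of fat were read beside Cox8b. Of 4 listed fat markers 3 were measured (Ucp1, Adipoq and Cidea; Plin1 was without a value). Their mean deviation from the vehicle level ran from -0.26 to 0.15 in vehicle rats and from 0.20 to 0.37 in treated rats, so the groups were apart in this mean. Of the 3 genes Adipoq alone was apart. Adipoq, which encodes the fat hormone adiponectin, gave -0.12, -0.11 and -0.23 against 0.08, 0.23 and 0.32, a difference of 0.37 (SE 0.09, limma adjusted p 0.478). Ucp1 (0.49, SE 0.34) and Cidea (0.05, SE 0.17) overlapped. The signal of Ucp1 was low and scattered, at -5.33, -5.90 and -4.61 in vehicle and -4.61, -5.16 and -4.61 in treated rats. It had the largest difference of the 3 in the mean. Of 4 muscle markers 2 were measured, Ckm (-0.51, SE 0.27) and Myh7 (0.54, SE 0.22), and their mean overlapped, from -0.23 to 0.21 in vehicle and from -0.20 to 0.29 in treated rats. The part of fat or muscle in the Cox8b values was not tested. In whole cortex, fewer cells of a type and less RNA per cell cannot be told apart.

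Complex V, ATP synthase, makes ATP in its F1 head. Atp5f1b, the catalytic beta subunit, gave 6.04, 6.15 and 6.27 in vehicle rats (mean 6.15 ± 0.11, SD, n = 3) and 6.0, 5.97 and 5.94 in treated rats (5.97 ± 0.03, SD, n = 3). All treated arrays were lower, with vehicle replicate 1 next to them, and the log2 fold change was -0.18 (SE 0.08, 95% interval -0.39 to 0.02, limma adjusted p 0.627). Without each array in turn it ran from -0.24 to -0.13. Atp5f1a, the alpha subunit that alternates with it in the head, gave 8.95, 8.90 and 9.0 against 8.88, 8.91 and 8.84, which overlapped, a difference of -0.08 (SE 0.07), or -0.05 without vehicle replicate 3. The 5 head subunits had a median of -0.08, with 4 below 0.

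Atp5pb, in the stalk that holds the head still, gave 7.77, 7.77 and 7.84 in vehicle rats and 7.65, 7.75 and 7.62 in treated rats. Treated replicate 2 was just below the vehicle values, and the log2 fold change was -0.13 (SE 0.07, limma adjusted p 0.692). All 4 stalk subunits lay below 0, with a median of -0.06. Atp5mc1, which encodes the subunit of the rotating c ring, gave 7.42, 7.49 and 7.67 against 7.53, 7.45 and 7.36, an overlap with a difference of -0.08 (SE 0.10), or -0.01 without vehicle replicate 3. Atp5if1, the inhibitor that stops the enzyme from running backwards, gave 6.30, 6.32 and 6.45 against 6.48, 6.40 and 6.40. These overlapped too, with a difference of 0.07 (SE 0.08), or 0.04 without vehicle replicate 1 and 0.11 without vehicle replicate 3.

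Within each group the members varied together from array to array. Measured from each gene's vehicle mean, the median over the 82 members was -0.08, -0.03 and 0.11 in vehicle replicates 1, 2 and 3, and 0.01, -0.03 and -0.09 in treated replicates 1, 2 and 3. The vehicle arrays were thus farther apart than the median difference between the groups. Vehicle replicate 3 was the highest of the 6 arrays for 57 members (69.5%) and for 23.8% of all features. It was the highest for 59.0% of the 907 features with a mean log2 value of 6 or more, a class chosen after the values were seen. Those bright features had medians of -0.04, -0.06 and 0.11 in vehicle rats and 0.03, 0.00 and -0.04 in treated rats. Their median log2 fold change was 0.0015 with 449 of 907 below 0, beside -0.04 with 56 of 82 for the members. Without vehicle replicate 3 the counts below 0 were 318 of 907 and 34 of 82. Treated replicate 3 was the lowest array for 36 members (43.9%, against 16.5% of all and 23.4% of bright features). Vehicle replicate 1 was the lowest for 31 (37.8%, against 16.0% and 24.1%). The part of array brightness in the members' values was not tested.

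**Figure D3:**
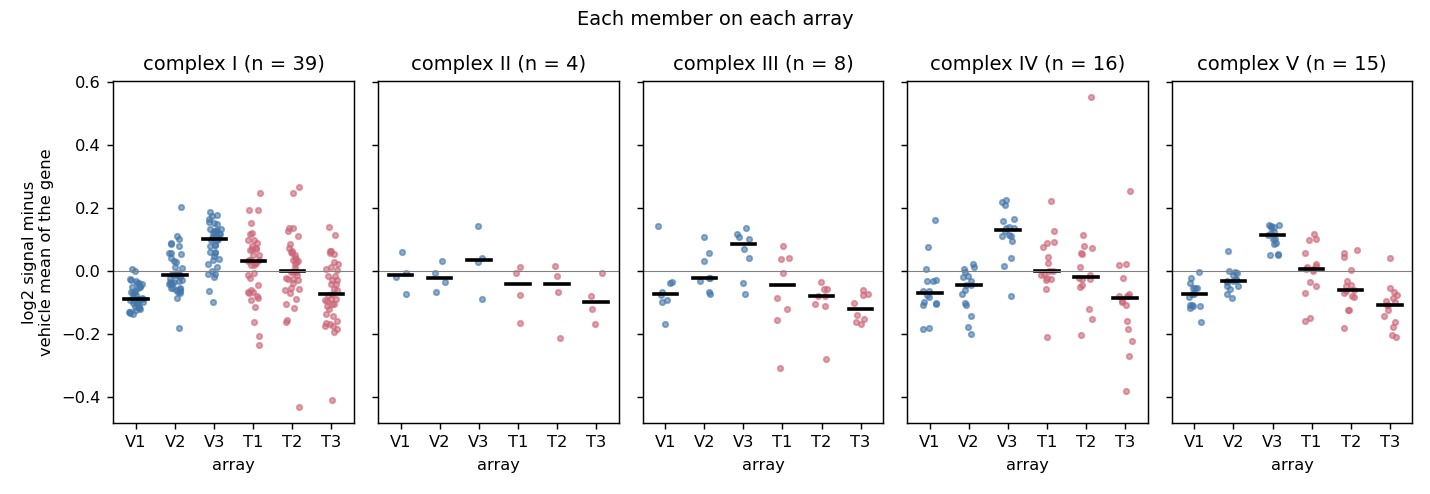
Each measured member on each array, as log2 signal minus the gene's own vehicle mean (vertical axis), for vehicle replicates V1 to V3 and treated replicates T1 to T3 in complexes I to V; black lines are medians. V3 has the highest median of the 6 arrays in every complex and T3 the lowest of the treated arrays.

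**Figure D4:**
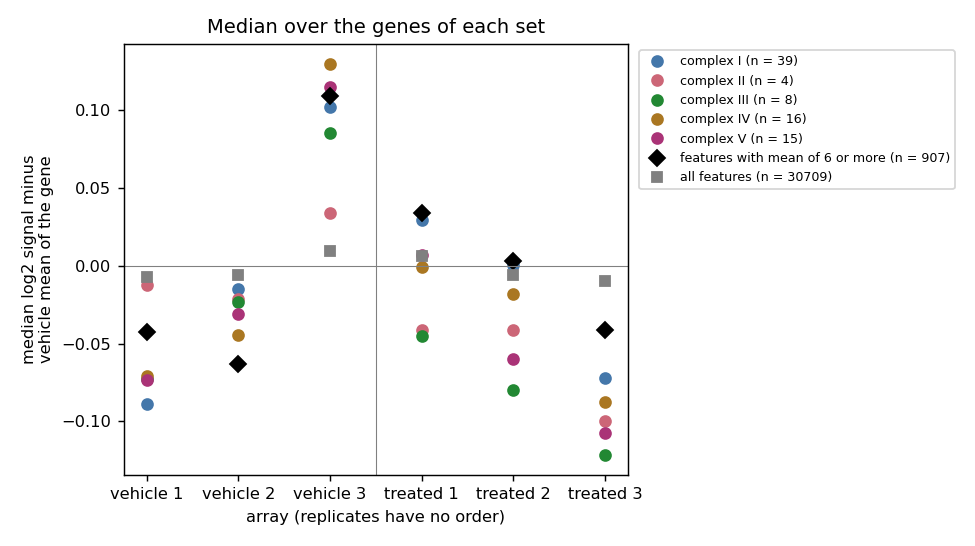
Median log2 signal minus the gene's vehicle mean on each array, for the members of each complex, the 907 bright features and all 30709 features. Vehicle replicate 3 lies at 0.11 for the bright features and between 0.03 and 0.13 for the complexes, while all features stay within 0.01 of 0 on every array.

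Between 63.7% and 69.3% of probes were well above background on each array, and no spot was saturated. All 7 markers of proximal tubule, the main cell type of cortex, were measured. Their mean deviation ran from -0.01 to 0.01 in vehicle rats and from -0.03 to 0.03 in treated rats. The single genes differed in both directions, from -0.15 (Miox, SE 0.09) to 0.12 (Slc22a6, SE 0.09), with 0 of 7 at an unadjusted limma p under 0.05. Erythrocyte markers (3 of 3 measured) ran from -0.18 to 0.23 in vehicle and from 0.23 to 0.57 in treated rats. Of them 2 of 3 were at an unadjusted limma p under 0.05, beside 8.32% of all features. Fibroblast markers (3 of 3 measured, 2 at such a p) ran from -0.18 to 0.13 and from -0.02 to 0.47, and medulla markers (2 of 2 measured, 1 at such a p) from -0.19 to 0.11 and from 0.01 to 0.36. Markers of the distal convoluted tubule (2 of 3 measured) ran from -0.09 to 0.07 and from -0.14 to -0.10. Markers of thick ascending limb, collecting duct, podocyte, endothelium, macrophage, lymphocyte and smooth muscle overlapped in this mean, with 0 at such a p. The part of these cell types in the members' values was not tested. All vehicle arrays shared a slide with treated replicates 1 and 3, and treated replicate 2 was alone on another slide. On the shared slide the vehicle arrays lay in row 1 and treated replicates 1 and 3 in row 2. Row and group cannot be told apart there.

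Members could be read through more than 1 kept probe in 42 cases. The median distance between the lowest and highest fold change of a gene's probes was 0.07, and in 14 genes the probes had both signs. In 3 genes they were over 0.2 apart. Cox6b2, the testis isoform of Cox6b1, gave -0.15 with its brightest probe and 0.61 with the other. Cox6a2 gave -0.11 with its brightest probe and -0.36 and -0.41 with the others. Ndufab1, the mitochondrial acyl carrier protein, gave -0.06 with its brightest probe, and -0.22 and 0.04 with the others. The naming table lists 108 pseudogenes under these name prefixes, and probe sequences were not used here, so which transcripts a probe reads was not tested. Of 118 protein-coding symbols under the prefixes, 36 had no named probe.

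Other genes of the pathway also stood near their vehicle level in the median of each list, and limma called none of them. Of 19 genes for electron carriers and entry points 17 were measured, with a median log2 fold change of -0.04, or 0.02 without vehicle replicate 3. The 1 at an unadjusted p under 0.05 was Prodh, the proline dehydrogenase that feeds electrons into ubiquinone, at -0.28 (SE 0.11, limma adjusted p 0.590). It gave 4.64, 4.95 and 4.96 in vehicle rats and 4.51, 4.57 and 4.63 in treated rats. All treated arrays were lower, but treated replicate 3 (4.632) was just below vehicle replicate 1 (4.637). Of 43 assembly factors outside the Nduf names 35 were measured, with a median of 0.01 (0.04 without vehicle replicate 3) and none at an unadjusted p under 0.05. The smallest p was that of Uqcc2, a factor for cytochrome b and complex III, with 2.76, 2.85 and 2.92 against 3.08, 2.99 and 3.00, all higher, and a difference of 0.18 (SE 0.08). Sdhaf1 had the largest difference of this list, 0.33 (SE 0.19, limma adjusted p 0.677), with overlap.

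Of 19 regulators of mitochondrial transcription and biogenesis 18 were measured, with a median of -0.05 (-0.02 without vehicle replicate 3) and none at an unadjusted p under 0.05. Ppargc1a, the coactivator that drives respiratory chain genes together with NRF1 and GABPA, gave -0.37, -0.30 and -0.44 in vehicle rats and -0.56, -0.57 and -0.50 in treated rats. All treated arrays were lower, with a log2 fold change of -0.17 (SE 0.07, limma adjusted p 0.603). Of the 18 regulators 8 lay above 0 and 10 below. Nrf1 itself differed by 0.01 (SE 0.10) and Gabpa by 0.10 (SE 0.07), both with overlap. The 66 measured genes of the mitochondrial ribosome, which translates the subunits encoded in mitochondrial DNA, had a median of 0.03 with 41 above 0, or 0.07 with 49 above 0 without vehicle replicate 3. At an unadjusted limma p under 0.05 were 1 higher and 1 lower, or 3.03% against 8.32% of all features. Mrps9, the higher one and the one with the smallest p, gave 2.05, 2.19 and 2.03 against 2.23, 2.36 and 2.39. The difference was 0.23 (SE 0.09, limma adjusted p 0.567). Mrps33, the lower one, differed by -0.19 (SE 0.08, limma adjusted p 0.599), with all treated arrays lower. The 13 subunits encoded in mitochondrial DNA had no named probe and were not analysed here.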

How the data were processed

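The submitters' processing notes name Agilent Feature Extraction 10.7. Its deposited scanner output gives linear spot intensity, which was background-subtracted and detrended, per the file headers. A value table from the authors, used as an alternative, holds a linear ratio: set against the scanner output, it is each signal divided by its array's 75th percentile, with no centring of genes and column medians from 0.103 to 0.106. Columns of replicates 1, 2 and 3 in this table fitted scanner replicates 3, 1 and 2 in both groups. Replicates are numbered here by scanner file, and groups are the same either way.

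Of 62976 spots 61657 were non-control. After 84 external control probes and 47 probes with an outlier flag were left out, 61526 remained, of which 27422 were named through RefSeq accessions (GRCr8) and 34104 were not. Probes that 3 or more of the 6 arrays marked well above background were kept, and the brightest stood for each gene. This gave 30709 features, 11907 of them named genes. Log2 signal minus the 75th percentile was compared between all 3 treated and 3 vehicle arrays with limma 3.58.1 in R 4.3.3 (lmFit, eBayes, Benjamini-Hochberg over all features, threshold 0.05), a script tested on simulated data. statmod 1.5.0 and data.table (1.17.8) were also used. The number of arrays limits the precision. Alternatives covered background correction, scaling, the deposited ratios, filters, probe choice, variance models, replicate and slide blocks, and leaving out each array.

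The members and gene lists were chosen with earlier results of these data known. Genes with values were named by rule: the 3 smallest p-values of each complex, a fixed set of subunits, and the smallest p of each other list. A gene that this rule picks is counted in the totals only; its own result is not reported here. Further members (those whose groups did not overlap or whose probes disagreed) were named after their values were seen. So were the citrate cycle genes, the markers, Sdhaf1, Nrf1, Gabpa and Mrps33.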

Additional observations from a re-analysis of the deposited data

How the results depend on the processing

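No member was called at an adjusted p under 0.05 in any of the 18 alternatives. Over all features 0 were called, against 5 with normexp background correction and with a robust variance-trend fit, 3 with the slide as a block, 2 when a gene's probes were averaged, 1 with the filter on all 6 arrays, and between 0 and 3 when each array was left out (3 without vehicle replicate 2 and without treated replicate 2, 2 without treated replicate 1). Members at an unadjusted p under 0.05 numbered 2, against 4 under quantile normalisation and the robust variance-trend fit, and 1 with no filter, array weights, the slide as a block or the replicate number as a block, and between 1 and 3 with each array left out. Members whose groups did not overlap numbered 12, and from 9 to 17 in the alternatives that kept all 6 arrays. With 1 array fewer they numbered 15 to 24 (24 without vehicle replicate 1 or 3, 19 without vehicle replicate 2). Fewer arrays also raised the share of all features to between 23.1% and 27.1%. With each array left out the median of complex II ran from -0.089 to -0.041. The medians of complexes I and IV turned to 0.03 without vehicle replicate 3. That of complex I also turned to 0.0043 with array weights and to 0.02 without treated replicate 3.

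Of 36 named genes, 28 kept their sign in every alternative and 8 turned it in at least one, 21 of 648 values in all. Ndufs1 turned to 0.017 with normexp. Ndufv1 turned to -0.0047 with normexp, -0.014 with probes averaged and -0.012 with the slide as a block. Sdhb turned to 0.0022 with probes averaged and 0.0076 with array weights. Cox6a1 and Cox8a turned to 0.0024 and 0.028 under quantile normalisation, and Cox7a2l to -0.012 with the slide as a block. With each array left out the ranges were -0.084 to 0.0096 for Ndufs1, -0.012 to 0.051 for Ndufv1, -0.053 to 0.054 for Sdhb, -0.070 to 0.025 for Cox6a1, -0.072 to 0.046 for Cox8a, -0.037 to 0.13 for Cox7a2l, -0.10 to 0.0053 for Cox4i1 and -0.10 to 0.012 for Cox7a2. The cause of these turns was not tested.

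Replicate numbers did not pair the samples: deviations of vehicle and treated arrays with the same number correlated at 0.02, -0.04 and -0.02, and no vehicle array correlated best with its own number. With the replicate number as a block 0 features were called. Treated replicate 2 alone held the second slide, so the slide block equals leaving it out. With 3 arrays a group the median SE of a fold change was 0.087 (log2) over the members and 0.113 over all features.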

Other observations

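All 14 listed citrate cycle genes were measured, with a median log2 fold change of -0.03 (-0.02 without vehicle replicate 3), and limma called none of them. Below 0 were 10 of the 14, and in 5 (Idh2, Ogdh, Suclg1, Suclg2 and Sucla2) every treated array was below every vehicle array (background 8.13%). Ogdh, the dehydrogenase that oxidises 2-oxoglutarate to succinyl-CoA, gave 4.73, 4.68 and 4.76 in vehicle rats and 4.41, 4.54 and 4.45 in treated rats, a difference of -0.26 (SE 0.07, limma adjusted p 0.498). The 3 subunits of succinyl-CoA ligase, which acts on its product and whose own product feeds complex II, were singled out after their values were seen. Suclg2, the GTP-specific subunit, gave 5.32, 5.45 and 5.26 against 5.12, 5.11 and 5.06, a difference of -0.25 (SE 0.08, limma adjusted p 0.521). Suclg1, the shared subunit, differed by -0.14 (SE 0.07), and Sucla2, the ATP-specific subunit, by -0.10 (SE 0.07). Ogdh and Suclg2 were the 2 genes of the list at an unadjusted p under 0.05, both lower (background 4.8%).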
